A study of Homo sapiens with 16 samples.

Results

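The transcripts described here encode 5 dual-specificity phosphatases (DUSP1, DUSP4, DUSP5, DUSP6 and DUSP7), 3 Sprouty proteins (SPRY1, SPRY2 and SPRY4) and 2 Sprouty-related proteins (SPRED1 and SPRED2), all of them restraints on signalling through the kinase ERK. They were chosen by symbol, and each was found under its Ensembl identifier, which makes 10 of the 64792 identifiers in the count table. All 10 passed the filter on low counts that left 14690 genes for testing. Messenger RNA came from DU145, an established human prostate cancer line that grew out of a brain metastasis, in 4 groups of 4 libraries: control cells, cells given lactate, cells given I-BET762, and cells given lactate and I-BET762 together. I-BET762 blocks the bromodomains of BET proteins, the readers of acetylated histones. By its title, the study asked how lactate bears on lipid metabolism and on chromatin. The labels give neither doses nor durations. For the cells given both agents the cell line field carries other line numbers while the titles say DU145, and the titles were followed. The labels call the replicates independent without saying whether they were separate cultures, so p-values measure the spread between these libraries, which may be technical.

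Growth factor receptors signal through RAS, RAF and MEK to ERK, and active ERK switches on transcription of its own inhibitors. Dual-specificity phosphatases remove the activating phosphates from ERK and related kinases: DUSP6 and DUSP7 act on ERK in the cytoplasm, DUSP5 on ERK in the nucleus, and DUSP1 and DUSP4 in the nucleus on ERK, p38 and JNK. Sprouty proteins act upstream, between the receptors and RAF, and SPRED proteins bring neurofibromin to the membrane, where it turns RAS off. In prostate tissue this negative feedback is known as a brake on fibroblast growth factor signalling, and loss of Sprouty expression has been described in prostate cancer.

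The libraries held 10711859 to 17173584 counts. Levels are given as CPM, a gene's counts over the library's total in units of 1000000 counts, with totals scaled by the trimmed mean of M values. A gene is called when edgeR's quasi-likelihood test gives a p under 0.05 after Benjamini-Hochberg adjustment over all 14690 genes. All 6 epithelial markers examined (EPCAM, CDH1, KRT7, KRT8, KRT18 and KRT19) were detected in every library, at a summed 2740 to 4500 CPM. Of the markers of luminal prostate cells, KLK3 reached at most 0.0688 CPM and FOLH1 had no counts. Summed fibroblast markers reached 10.2 CPM and summed leukocyte markers 3.86 CPM, with DCN and CD3E at 0. HEXIM1, a transcript known to rise under BET inhibitors, went against 2 labels: the library labelled control replicate 2 had 135.1 CPM, against 70.0 to 77.4 in the other controls, and the library labelled I-BET762 replicate 2 had 89.6, against 113.3 to 148.8 in the other I-BET762 libraries. Where leaving out these 2 libraries changed the call of a member in the reported model, both results are given. For other models this is done for some results only. Levels also followed GC content differently between groups: Spearman's rho between GC content and a gene's deviation from its mean ran from -0.563 to -0.302 in the controls and from -0.014 to 0.328 under lactate. That rho ran from -0.19 to 0.171 with I-BET762 and from 0.0616 to 0.445 with both agents.

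Per kilobase of exon, the 10 genes covered a wide range of levels. Averaged over the 16 libraries, DUSP5 stood highest at 92.1 CPM per kilobase, followed by DUSP1 at 58.5, and their libraries overlapped, at 57.5 to 137 and 30.7 to 95.2. SPRED2 (18.2), SPRY2 (17.8), DUSP6 (14.0) and SPRED1 (11.4) formed a middle range of CPM per kilobase in which neighbours overlapped across libraries. SPRY4 (2.51), DUSP4 (1.63), DUSP7 (1.53) and SPRY1 (1.08) were the low members on the same scale, again with overlapping libraries. No library of a low member reached the lowest library of the middle range, and none of the middle range reached the lowest DUSP1 library. SPRY1, the lowest of them, rested on 23 to 128 counts a library.

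Lactate alone was followed by a rise of 1 member, SPRY1, and a fall of 2, SPRED1 and SPRED2. Over all genes tested, 13.6% rose and 10.1% fell in this comparison, so 3 calls among 10 genes lie close to the 23.7% called overall. The median log2 fold change of the 10 members was -0.18, against 0.03 for all genes. With lactate added to I-BET762, SPRY1 rose again and no member fell, where 3.34% of all genes rose and 1.57% fell, and the member median was -0.29 against a median of 0.0 over all genes. At an unadjusted p under 0.05 stood 4 members with lactate alone (39.5% of all genes), 4 with lactate added to I-BET762 (19.6%) and 5 with both agents against the control (33.9%).

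**Figure D1:**
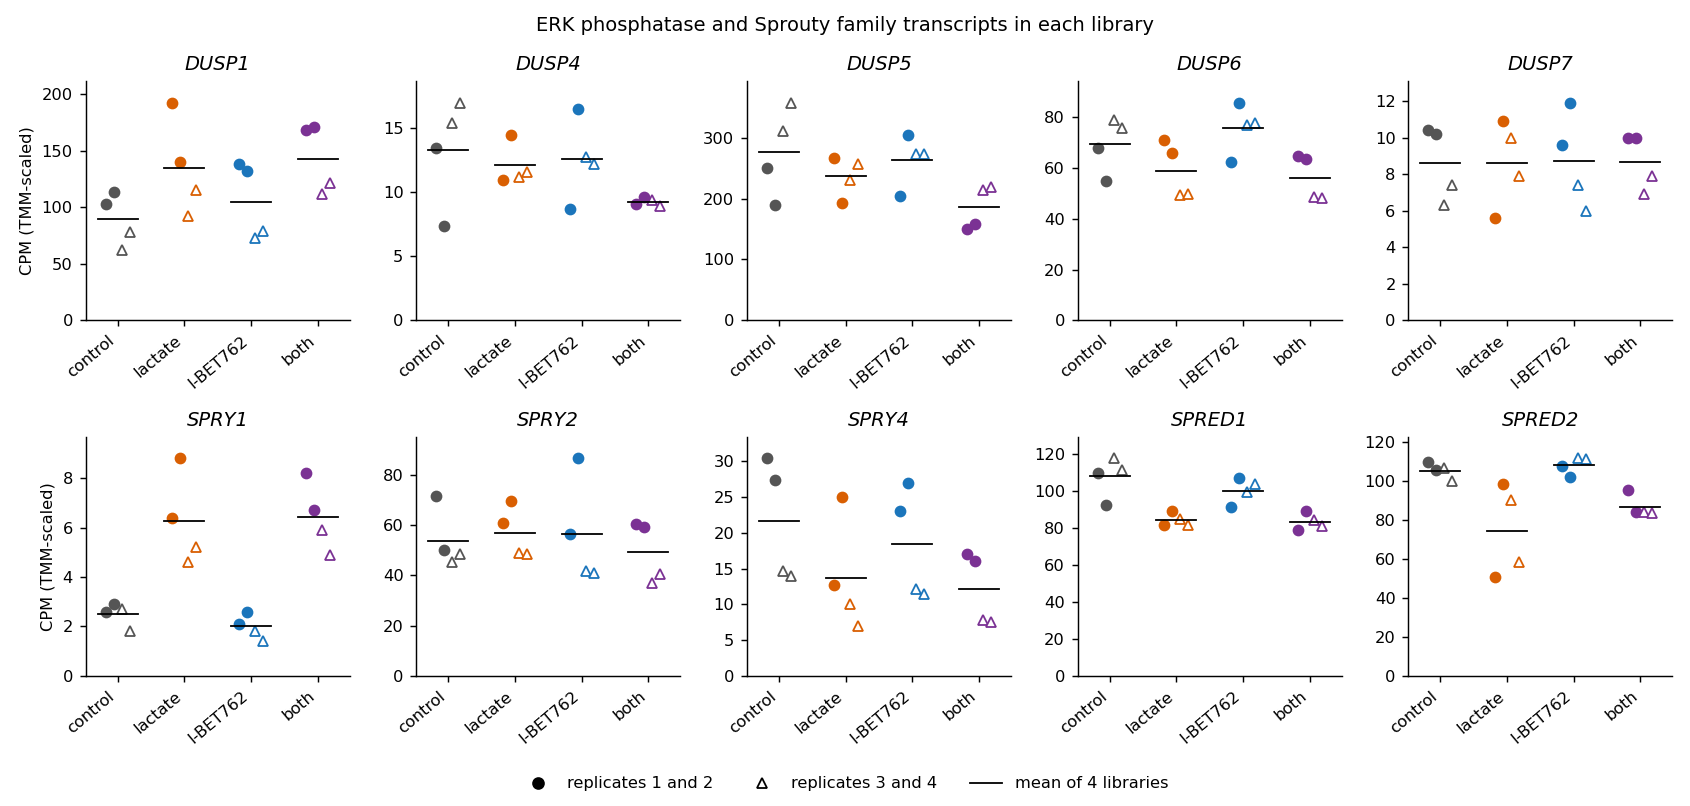
Normalized level of each gene in each of the 16 libraries, in CPM on a linear axis from 0, by group. Filled circles are replicates 1 and 2, open triangles are replicates 3 and 4, and bars are means of 4 libraries. SPRY1 stands higher in every library with lactate than in any without, while replicates 1 and 2 of SPRY4, DUSP1 and SPRY2 lie above replicates 3 and 4 in every group.

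SPRY1, a membrane-bound inhibitor of receptor tyrosine kinase signalling, showed the largest change of the 10. Its gene (ENSG00000164056) lies on chromosome 4 at 123396795 to 123403760 of GRCh38, on the plus strand (gene positions here and below are those of GENCODE release 29). The 250 bases before each of its RefSeq starts (GRCh38.p14, plus strand) are shown because it is the member that passed the test in each of the 3 comparisons that add lactate. The first, chr4:123396545-123396794, has 45.6% GC, and the second, chr4:123398136-123398385, has 68.0%. Capitals mark matches on either strand to 1 of 4 motifs searched: the cyclic AMP response element TGACGTCA, its shorter core TGACG (which the full element contains), the ETS motif CCGGAAGT and the SP/KLF motif GGGCGG.
SPRY1 upstream start: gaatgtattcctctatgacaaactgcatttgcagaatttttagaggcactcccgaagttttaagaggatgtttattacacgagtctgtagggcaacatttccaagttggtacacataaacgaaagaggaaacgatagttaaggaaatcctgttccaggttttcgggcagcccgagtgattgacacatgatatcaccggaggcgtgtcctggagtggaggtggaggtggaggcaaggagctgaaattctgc
SPRY1 downstream start: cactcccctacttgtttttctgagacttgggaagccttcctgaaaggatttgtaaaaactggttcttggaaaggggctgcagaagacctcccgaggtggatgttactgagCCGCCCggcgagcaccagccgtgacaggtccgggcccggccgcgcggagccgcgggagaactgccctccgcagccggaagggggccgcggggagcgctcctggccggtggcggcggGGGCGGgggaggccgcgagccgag
The upstream window holds no match, and the downstream window holds 2 of GGGCGG, a motif present in 42.6% of the 35116 windows of that length.

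SPRY1 stood at 2.6, 2.9, 2.7 and 1.8 CPM in control replicates 1 to 4, and at 6.4, 8.8, 4.6 and 5.2 CPM under lactate. All 4 lactate libraries lay above all 4 controls. The group means were 2.51 ± 0.457 and 6.25 ± 1.86 CPM (SD, n = 4), a 2.48-fold rise (1.31 on the log2 scale, SE 0.24, edgeR adjusted p = 0.00192). In bulk RNA, more cells with a transcript and more of it per cell cannot be told apart. With I-BET762 the libraries read 2.1, 2.6, 1.8 and 1.4 CPM, and with both agents 8.2, 6.7, 5.9 and 4.9 CPM. Here too the groups did not overlap, and the rise was 3.23-fold (1.69 on the log2 scale, SE 0.25, edgeR adjusted p = 0.000782). The response to lactate was 0.38 larger on the log2 scale in the presence of I-BET762, with an SE of 0.34, a difference that did not pass the test (edgeR adjusted p for the interaction = 0.722). Against the untreated control, cells given both agents had 2.56 times the SPRY1 level (1.36 on the log2 scale, SE 0.24, edgeR adjusted p = 0.00123). The 3 comparisons with the control use the same 4 control libraries. SPRY1 passed the threshold, in the same direction, in each of 21 alternatives that tested it in these 3 comparisons.

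The other Sprouty genes did not pass the test. SPRY2 (ENSG00000136158, chromosome 13, 80335976 to 80340951, minus strand) read 71.4, 50.1, 45.1 and 48.3 CPM in the controls and 60.6, 69.6, 48.9 and 48.3 under lactate. It read 56.3, 86.5, 41.6 and 40.8 CPM with I-BET762 and 60.4, 59.2, 36.9 and 40.4 with both agents. All 4 groups overlapped, and its log2 fold change was 0.08 with lactate alone and -0.19 with lactate added to I-BET762 (edgeR adjusted p = 0.827 and 0.717).

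SPRY4, the Sprouty member often read as a transcript of active ERK, is on chromosome 5 at 142310427 to 142326455 (ENSG00000187678, minus strand). An antisense gene, SPRY4-AS1, overlaps it and reached at most 0.553 CPM. If counting did not use strand, reads of such partners cannot be told apart. The window before a RefSeq start of SPRY4, chr5:142324248-142324497 on the minus strand (GRCh38.p14), is shown with that of DUSP1, chr5:172771196-172771445 on the minus strand, because in both genes replicates 1 and 2 lay above replicates 3 and 4 in every group, as given below. Capitals mark the same motifs.
SPRY4: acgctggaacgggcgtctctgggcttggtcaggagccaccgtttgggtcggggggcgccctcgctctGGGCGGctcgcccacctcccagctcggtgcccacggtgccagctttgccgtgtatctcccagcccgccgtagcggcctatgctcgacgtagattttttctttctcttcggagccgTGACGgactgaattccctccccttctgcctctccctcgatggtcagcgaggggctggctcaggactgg
DUSP1: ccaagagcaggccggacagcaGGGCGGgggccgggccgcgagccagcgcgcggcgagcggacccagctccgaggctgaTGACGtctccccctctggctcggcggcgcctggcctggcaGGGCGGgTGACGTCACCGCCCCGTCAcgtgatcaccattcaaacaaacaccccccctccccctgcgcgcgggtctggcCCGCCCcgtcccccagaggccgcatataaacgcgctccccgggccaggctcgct
The DUSP1 window, 74.4% GC, holds 1 full cyclic AMP response element, found in 1.65% of all windows, along with 4 cores, some of them within it, and 4 matches of GGGCGG. The SPRY4 window holds 1 core, found in 21.2% of all windows, and 1 GGGCGG. The ETS motif, present in 3.42% of all windows, matched neither. SPRY2 had the same order of replicates, and none of its windows, which are not shown, holds the full element. A match of letters is a description of the window and shows no binding.

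In the controls SPRY4 read 30.4, 27.4, 14.6 and 14.0 CPM, and under lactate 12.7, 25.0, 10 and 7.0. Control replicates 1 and 2 stood far above replicates 3 and 4, and the groups overlapped, because lactate replicate 2 exceeded control replicates 3 and 4. The log2 fold change was -0.66 with an SE of 0.40 (edgeR adjusted p = 0.229), and without lactate replicate 2 it was -1.14 and passed (edgeR adjusted p = 0.0354). With I-BET762 the libraries read 23.0, 27.0, 12.1 and 11.5 CPM, and with both agents 17.1, 16.0, 7.8 and 7.5. At every replicate number the library with both agents lay below that with I-BET762 alone, yet the groups overlapped and the log2 fold change of -0.60 did not pass (edgeR adjusted p = 0.453).

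DUSP1, an immediate early phosphatase induced by mitogens and by stress, has its gene on chromosome 5 at 172768090 to 172771195 (ENSG00000120129, minus strand), and the antisense gene AC022217.3 that overlaps it reached at most 0.497 CPM. It read 103.2, 113.4, 61.9 and 78.5 CPM in the controls and 192.3, 139.7, 91.9 and 115.2 under lactate. Lactate replicate 1 was the highest of the 16 libraries, and the groups overlapped. The log2 fold change of 0.59 (SE 0.26) did not pass the test (edgeR adjusted p = 0.0964), and without lactate replicate 3 it was 0.74 and passed (edgeR adjusted p = 0.0442). With a correction for GC content the DUSP1 change was 0.49, and with one for GC content and exon length 0.31. Neither passed (edgeR adjusted p = 0.205 and 0.395). The I-BET762 libraries stood at 137.9, 132.0, 72.4 and 78.8 CPM and those with both agents at 168.0, 171.1, 112.1 and 121.1, a log2 difference of 0.44 (SE 0.26, edgeR adjusted p = 0.366).

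Within groups, SPRY4, DUSP1 and SPRY2 separated by replicate number. Replicates 1 and 2 lay above replicates 3 and 4 without overlap in every group: the ratio of their means was 2.02 to 2.22 for SPRY4, 1.45 to 1.78 for DUSP1 and 1.30 to 1.73 for SPRY2. No member showed the reverse order in every group. Over all genes, 2.55% had replicates 1 and 2 above in every group and 2.59% had them below. The labels do not say what replicates 1 and 2 had in common, and its part in these levels was not tested. Computed within replicates 1 and 2 and within replicates 3 and 4, the lactate difference of SPRY4 was -0.69 and -0.77 on the log2 scale. That of DUSP1 was 0.60 and 0.56. With a model term for this split, chosen after seeing the data, SPRY4 fell by 0.67 on the log2 scale under lactate (edgeR adjusted p = 0.00881) and DUSP1 rose by 0.59 (edgeR adjusted p = 0.0028). With the same term, lactate added to I-BET762 gave -0.61 for SPRY4 and 0.48 for DUSP1 (edgeR adjusted p = 0.0362 and 0.0205). Once the 2 libraries that went against their labels were also left out, that difference was -0.57 for SPRY4 and did not pass (edgeR adjusted p = 0.102), and 0.49 for DUSP1 (edgeR adjusted p = 0.0486). For both agents against the control the term gave -0.85 for SPRY4 and 0.69 for DUSP1, and both passed (edgeR adjusted p = 0.00224 and 0.000894).

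**Figure D2:**
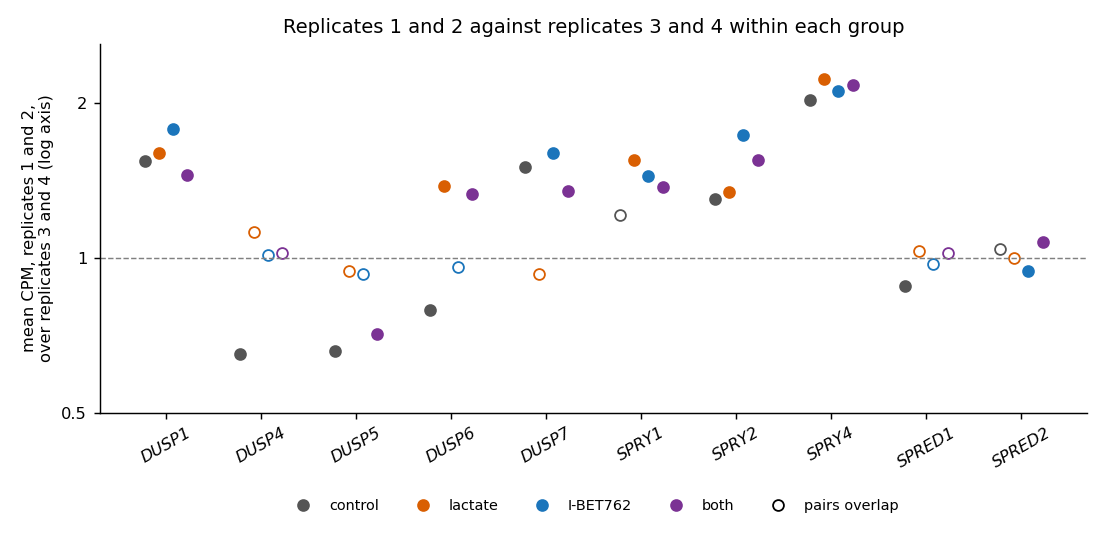
Ratio of the mean CPM of replicates 1 and 2 to that of replicates 3 and 4 within each group, for the 10 genes, on a log axis. Each point is 1 group of 4 libraries, filled where the replicates did not overlap. SPRY4, at 2.02 to 2.22, is the gene whose 4 groups lie farthest from 1, and SPRED2 lies near 1 in all 4.

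SPRED1 and SPRED2, adaptors of neurofibromin, were the members that fell under lactate. SPRED1 (ENSG00000166068, chromosome 15, 38252326 to 38357249, plus strand) read 109.5, 92.3, 117.5 and 111.1 CPM in the controls and 81.5, 88.9, 84.6 and 81.6 under lactate. All 4 lactate libraries lay below all 4 controls, with means of 84.2 ± 3.46 and 108 ± 10.7 CPM (SD, n = 4). SPRED1 fell by 0.35 on the log2 scale (SE 0.09, edgeR adjusted p = 0.0138). SPRED1 has the lowest exonic GC content of the 10, at 40.7%, and with a correction for GC content its change was -0.20 and no longer passed (edgeR adjusted p = 0.123). Without control replicate 3 it was -0.31 (edgeR adjusted p = 0.0503). Nor did it pass with no filter on low counts (-0.38, edgeR adjusted p = 0.0671) or with these groups fitted alone (-0.36, edgeR adjusted p = 0.0988). The I-BET762 libraries stood at 91.1, 106.9, 99.2 and 103.9 CPM and those with both agents at 78.7, 89.2, 84.1 and 81.0. These groups did not overlap either, but the log2 difference of -0.27 did not pass the test (edgeR adjusted p = 0.111). It passed by DESeq2 (adjusted p = 0.0314) and in edgeR with these groups fitted alone (adjusted p = 0.0209). Against the control, SPRED1 fell with both agents by 0.37 on the log2 scale (SE 0.09, edgeR adjusted p = 0.0105), and with the GC correction the change was -0.21 (edgeR adjusted p = 0.15), and with no filter on low counts it was -0.35 (edgeR adjusted p = 0.108).

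SPRED2 (ENSG00000198369, chromosome 2, 65310851 to 65432637, minus strand) read 109.7, 105.6, 106.4 and 100 CPM in the controls and 107.7, 101.8, 111.6 and 111.1 with I-BET762, a narrow range. Under lactate it read 50.7, 98.2, 90.2 and 58.4 CPM. All 4 lactate libraries lay below the controls, with replicates 1 and 4 far below replicates 2 and 3. SPRED2 fell by 0.50 on the log2 scale (SE 0.16, edgeR adjusted p = 0.0307). Without lactate replicate 1 it was -0.36 (edgeR adjusted p = 0.0501), and without lactate replicate 4 it was -0.40 (edgeR adjusted p = 0.0998). Leaving out any 1 of the 4 controls gave -0.48 to -0.51 and also ended the call (edgeR adjusted p = 0.0557 to 0.0683). Lactate replicates 1 and 4 were also the libraries in which levels fell most with exon length (Spearman's rho -0.397 and -0.416, against 0.237 and 0.0969 in the other lactate libraries). With a correction for GC content and exon length the SPRED2 change was -0.47 and passed (edgeR adjusted p = 0.0295). Without the 2 libraries that went against their labels it was -0.50 and did not pass (edgeR adjusted p = 0.067), nor did it with library totals alone as the scaling (-0.48, edgeR adjusted p = 0.0517) or with these groups fitted alone (-0.51, edgeR adjusted p = 0.139). With both agents SPRED2 read 95.6, 83.9, 83.9 and 83.7 CPM, below every I-BET762 library, at a log2 difference of -0.32 that did not pass (edgeR adjusted p = 0.284), but did with these groups fitted alone (edgeR adjusted p = 0.0104). The groups did not overlap for SPRY1, SPRED1 and SPRED2, 3 members of 10, both with lactate alone, where this held for 20% of all genes, and with lactate added to I-BET762, where it held for 22.5%.

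**Figure D3:**
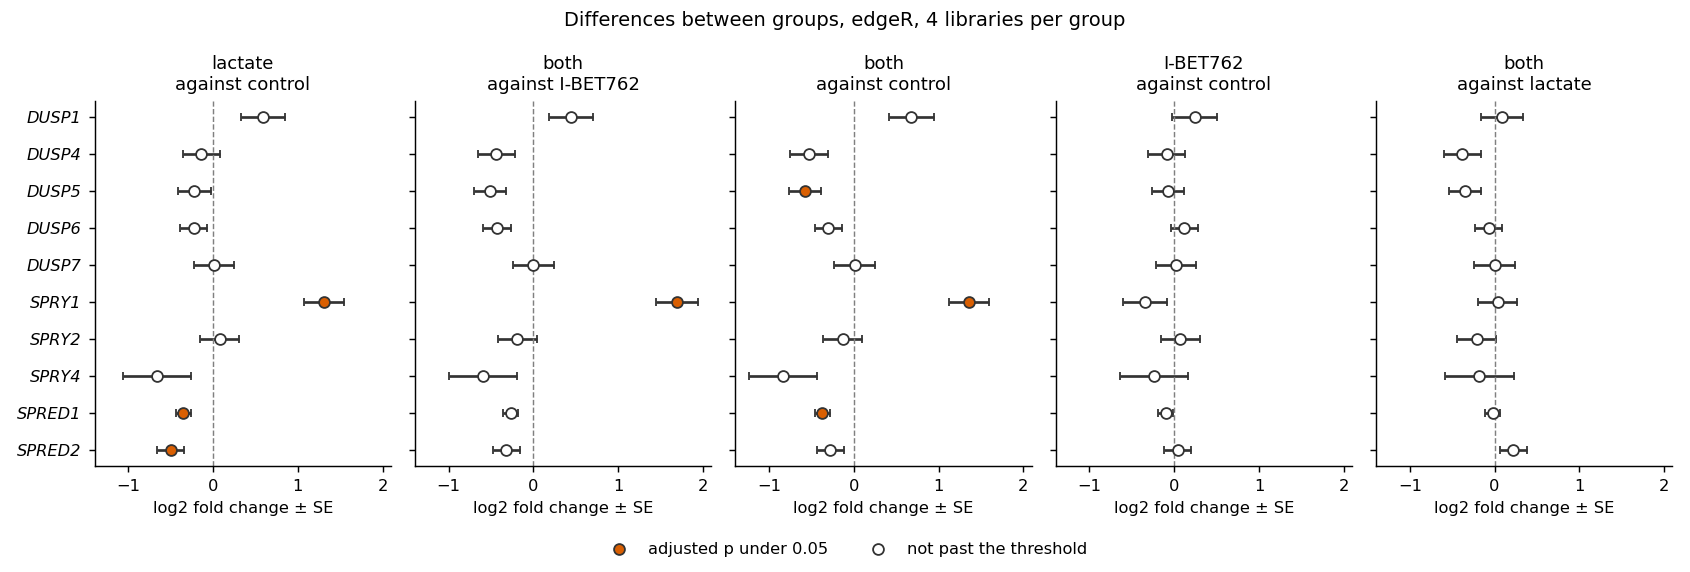
Log2 fold change of each gene in the 5 comparisons between groups, with bars of 1 SE, from edgeR with 4 libraries a group. Filled points have an adjusted p under 0.05. SPRY1 is filled in the 3 comparisons that add lactate, and no point is filled in the 2 that add I-BET762 alone.

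Among the phosphatases that act on ERK, DUSP5 passed the test in the comparison of both agents with the control. DUSP5 (ENSG00000138166, chromosome 10, 110497838 to 110511544, plus strand) read 249.5, 189.3, 310.3 and 357.3 CPM in the controls and 150.4, 158.7, 214.5 and 218.9 with both agents. The groups overlapped through the library labelled control replicate 2. The means were 277 ± 73.1 and 186 ± 36.1 CPM (SD, n = 4), and DUSP5 fell by 0.58 on the log2 scale (SE 0.19, edgeR adjusted p = 0.0364). In this comparison 3 members were called, 1 higher (SPRY1) and 2 lower (SPRED1 and DUSP5), where 13% of all genes rose and 7.72% fell, 20.7% in all. The libraries of SPRY1, SPRED1 and SPRED2 did not overlap here either, which held for 31.2% of all genes. Without control replicate 4 the DUSP5 difference was -0.40 (edgeR adjusted p = 0.149), and it also lost its call without control replicate 3, at -0.52, or without replicate 1 or 2 of the cells given both agents, at -0.49 and -0.51 (edgeR adjusted p = 0.107 to 0.11). The members not called ran from -0.84 for SPRY4 to 0.68 for DUSP1 on the log2 scale (edgeR adjusted p = 0.154 and 0.0695), and DUSP1 passed without control replicate 2, at 0.82 (edgeR adjusted p = 0.0479), and by DESeq2 (adjusted p = 0.0475). For DUSP5, lactate alone gave 267.2, 192.7, 229.7 and 257.3 CPM and a log2 fold change of -0.22 (edgeR adjusted p = 0.38). With I-BET762 alone the libraries read 204.4, 304.2, 273.1 and 273.9 CPM, and adding lactate gave a log2 difference of -0.51 (edgeR adjusted p = 0.13). That difference passed with GC and exon length corrections, at -0.60 (edgeR adjusted p = 0.0309), with the term for replicates 1 and 2 against 3 and 4, at -0.53 (edgeR adjusted p = 0.0461), and with these groups fitted alone (edgeR adjusted p = 0.0271). With the replicate term and without the 2 libraries that went against their labels it was -0.38 and did not pass (edgeR adjusted p = 0.0975).

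DUSP6, the cytoplasmic ERK phosphatase whose transcript is widely used as a readout of ERK activity, lies on chromosome 12 at 89347232 to 89353271 (ENSG00000139318, minus strand), where the antisense gene AC024909.2 reached at most 0.186 CPM. It read 67.8, 54.9, 79.0 and 75.8 CPM in the controls and 71.1, 66.1, 49.4 and 49.6 under lactate. Replicates 3 and 4 of the lactate group lay below every control and replicates 1 and 2 did not, so that the difference was 0.17 within replicates 1 and 2 and -0.64 within replicates 3 and 4 on the log2 scale. Over all 4 libraries the log2 fold change was -0.23 (SE 0.16, edgeR adjusted p = 0.277). With I-BET762 it read 62.2, 85.7, 76.8 and 77.6 CPM and with both agents 64.6, 63.7, 48.4 and 48.0. The groups overlapped only through I-BET762 replicate 1, and the log2 difference of -0.43 (SE 0.16) did not pass the test (edgeR adjusted p = 0.132), but did with these groups fitted alone (edgeR adjusted p = 0.0347).

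DUSP4 (ENSG00000120875, chromosome 8, 29333064 to 29350668, minus strand), a nuclear phosphatase, read 13.5, 7.4, 15.4 and 17 CPM in the controls and 9.1, 9.6, 9.4 and 8.9 with both agents. The library labelled control replicate 2 was the lowest of the 16 and the only control below any library given both agents. The log2 difference was -0.53 (SE 0.22, edgeR adjusted p = 0.0995). With both of the libraries that went against their labels left out, it was -0.72 and passed (edgeR adjusted p = 0.00565). Under lactate DUSP4 read 11, 14.5, 11.2 and 11.6 CPM, at a log2 fold change of -0.14 (edgeR adjusted p = 0.649). All 4 libraries with both agents lay below all 4 with lactate alone, which held for 7.6% of all genes in either direction, but the log2 difference of -0.38 did not pass (edgeR adjusted p = 0.382).

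DUSP7 (ENSG00000164086, chromosome 3, 52048919 to 52056550, minus strand), the closest relative of DUSP6 among the members, had group means of 8.59 to 8.72 CPM. It read 10.4, 10.2, 6.3 and 7.4 CPM in the controls and 5.6, 10.9, 10 and 7.9 under lactate. With I-BET762 it read 9.6, 11.9, 7.4 and 6.0 CPM, and with both agents 10, 10, 6.9 and 7.9. All groups overlapped, and its log2 fold change with lactate was 0.01 with an SE of 0.24 (edgeR adjusted p = 0.981). DUSP7 has the highest exonic GC content of the 10, at 59.6%. With the GC correction its change with lactate was -0.34 and did not pass either (edgeR adjusted p = 0.265).

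With I-BET762 alone edgeR called 0 of the 10 genes, where 0.442% of all genes were called, and none had an unadjusted p under 0.05, where 11.4% of all genes did. The smallest adjusted p was that of SPRY1 at 0.741, with a log2 fold change of -0.34 (SE 0.26). DESeq2 and limma-voom also called 0 members. DUSP4 read 8.7, 16.5, 12.8 and 12.2 CPM with I-BET762. For DUSP4, DUSP5, SPRY2 and SPRED1 the I-BET762 library lay below the control of the same number at numbers 1, 3 and 4 and above it at number 2, the pair of libraries in which HEXIM1 went against the labels. Over all genes, 17.5% had that pattern, against 3.1% with number 1, 2.34% with number 3 and 10.2% with number 4 as the exception. Without these 2 libraries the log2 differences were -0.44 for DUSP4, -0.29 for DUSP5, -0.25 for SPRY2 and -0.20 for SPRED1, and none passed (edgeR adjusted p = 0.219 to 0.734).

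With I-BET762 added to lactate, edgeR called 0 of the 10 members and 0% of all genes. No member had an unadjusted p under 0.05 in that comparison, where 15.6% of all genes did, and the smallest adjusted p was 0.354, for DUSP5 at a log2 difference of -0.35 (SE 0.19). The interaction of lactate with I-BET762 gave 0 calls among members and 0% among all genes, with no member at an unadjusted p under 0.05, where 6.09% of all genes stood. DESeq2 and limma-voom called 0 members in both. The interaction estimates ran from -0.29 for DUSP4 to 0.38 for SPRY1, with SEs of 0.31 and 0.34, so differences of about that size between the responses were not resolved with 4 libraries a group.

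**Figure D4:**
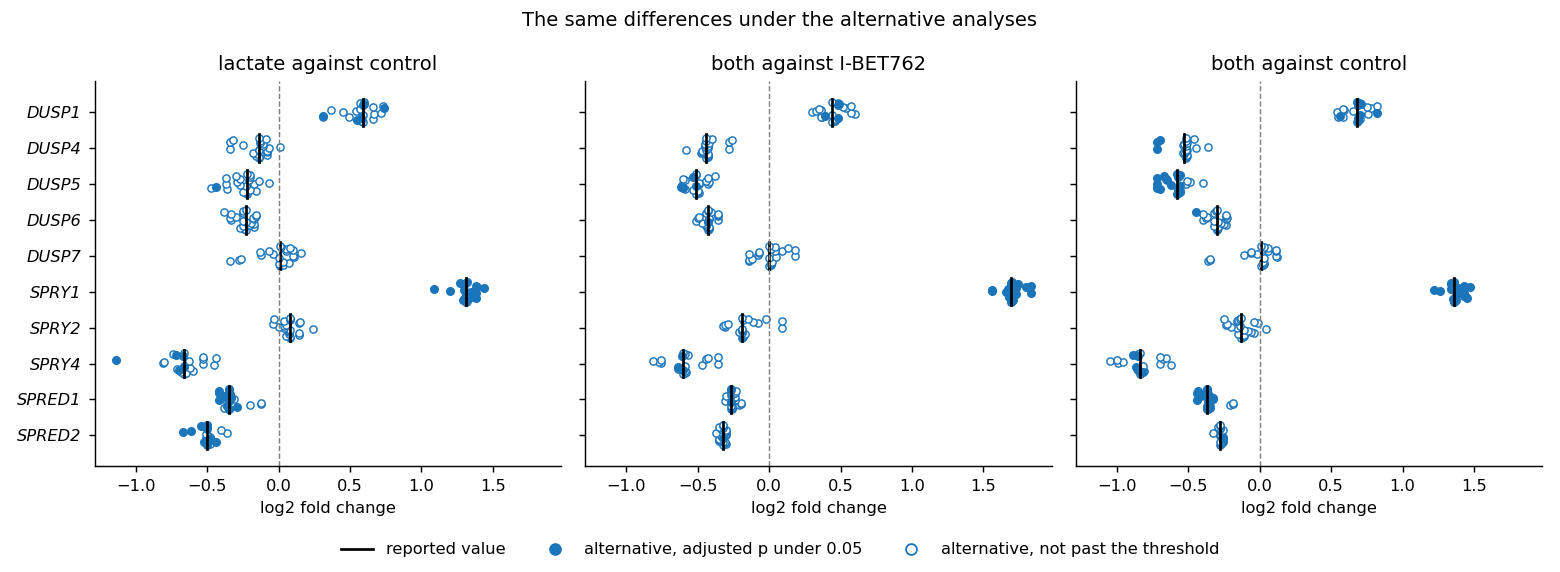
Log2 fold change of each gene under every alternative analysis in the 3 comparisons that add lactate. Black bars mark the reported value, filled points are alternatives with an adjusted p under 0.05 and open points are the others. SPRY1 stays filled throughout, while SPRED1, SPRED2, DUSP1, SPRY4, DUSP4, DUSP5 and DUSP6 hold both filled and open points.

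Other genes of the pathway were read from lists of known components, and most of their calls under lactate were lost with a correction for GC content. The counts of each list, here and below, stand beside 13.6% of all genes that rose and 10.1% that fell under lactate. With lactate added to I-BET762 these shares were 3.34% and 1.57%, and with both agents against the control 13% and 7.72%. Whether any list differs from these shares was not tested. Taking from each list the 4 genes with the smallest p under lactate, 14 passed the test, and of these 3 also passed with that correction: FGFR4, MET and MAPK8. Without control replicate 3, 9 of the 14 lost their call (among them DUSP9, RASA2, DUSP23, PTPN11, MAPK11, MAPK14 and MAP2K4, edgeR adjusted p = 0.0505 to 0.0965). MAPK3, FGFR4, MET and MAPK8 kept it whichever 1 library was left out. Among 10 tested of 12 other inhibitors of ERK signalling, 1 rose and 1 fell under lactate, DUSP9 and RASA2. DUSP9, another cytoplasmic ERK phosphatase, went from 2.19 ± 0.67 to 4.81 ± 1.01 CPM (SD, n = 4, log2 fold change 1.12, edgeR adjusted p = 0.0219), and RASA2, a RAS GTPase-activating protein, from 63.6 ± 4.89 to 49.4 ± 9.39 CPM (log2 fold change -0.36, edgeR adjusted p = 0.0381). With lactate added to I-BET762 none of these 10 was called. Among 9 tested of 12 dual-specificity phosphatases that act on stress kinases or other substrates, DUSP23 alone was called under lactate, higher. With the GC correction DUSP9 stood at 0.35, RASA2 at -0.21 and DUSP23 at 0.41 on the log2 scale, and none of them passed (edgeR adjusted p = 0.219 to 0.394). Without lactate replicate 1, DUSP23 stood at 0.40 (edgeR adjusted p = 0.114).

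In the RAS, RAF, MEK and ERK cascade, 2 of 19 tested genes rose and 5 fell under lactate, where 13.6% of all genes rose and 10.1% fell. MAPK3, which encodes ERK1, rose from 67.4 ± 8.07 to 107 ± 20.1 CPM (SD, n = 4, log2 fold change 0.67, edgeR adjusted p = 0.00413). PTPN11, which encodes the phosphatase SHP2, fell by 0.65 on the log2 scale (edgeR adjusted p = 0.0209). With lactate added to I-BET762, MAPK3 was the only one of the 19 called, at a log2 fold change of 0.51 (edgeR adjusted p = 0.0443), a call that was lost without any 1 of the 8 libraries compared (0.45 to 0.58, edgeR adjusted p = 0.0515 to 0.156). With the GC correction the lactate differences were 0.23 for MAPK3 and -0.57 for PTPN11 on the log2 scale, and neither passed (edgeR adjusted p = 0.137 and 0.0531).

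Of 11 tested transcripts known to follow ERK activity, ETV5 alone was called under lactate, lower, at a log2 fold change of -0.37 (edgeR adjusted p = 0.0339), or -0.35 with the GC correction (edgeR adjusted p = 0.0741). Its call was also lost without control replicate 1, 2 or 4 or lactate replicate 3 or 4 (-0.31 to -0.37, edgeR adjusted p = 0.0502 to 0.104). None of the 11 was called with lactate added to I-BET762. With both agents against the control PHLDA1 alone was called, lower, from 549 ± 59.7 to 356 ± 49.9 CPM (SD, n = 4, log2 fold change -0.62, edgeR adjusted p = 0.00617). The median log2 fold change of the 11 was -0.18 under lactate, the same as that of the 10 feedback genes. Other pathway lists had medians from -0.27 (RAS, RAF, MEK and ERK cascade) to 0.19 (phosphatases of stress kinases or other substrates).

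Upstream, 1 of 16 growth factor receptors and ligands rose under lactate and 1 fell. FGFR4, a fibroblast growth factor receptor, rose from 33.5 ± 9.78 to 71.4 ± 5.49 CPM (SD, n = 4, log2 fold change 1.09, edgeR adjusted p = 0.00135). With the GC correction its change was 0.50 (edgeR adjusted p = 0.0192). MET, the receptor of hepatocyte growth factor, fell from 473 ± 56.7 to 293 ± 78.8 CPM (log2 fold change -0.69, edgeR adjusted p = 0.00692), or -0.58 with that correction (edgeR adjusted p = 0.0208). With lactate added to I-BET762, FGFR4 rose by 0.73 on the log2 scale (edgeR adjusted p = 0.0324). That call was lost without I-BET762 replicate 2, 3 or 4 or replicate 1, 2 or 4 of the cells given both agents (0.63 to 0.74, edgeR adjusted p = 0.0558 to 0.117), and MET did not pass at -0.47 (edgeR adjusted p = 0.0986). A further list held p38 and JNK, the other substrates of DUSP1 and DUSP4, along with kinases upstream of them, such as MAP2K4 and MAP2K7. Of its 10 tested genes, 2 rose and 3 fell under lactate, with MAP2K4 and MAP2K7 among those called. MAPK8, which encodes JNK1, fell by 0.63 and MAPK14, which encodes p38 alpha, by 0.36 on the log2 scale (edgeR adjusted p = 0.00553 and 0.0189), and with the GC correction MAPK8 stood at -0.48 and MAPK14 at -0.28 (edgeR adjusted p = 0.0447 and 0.0782).

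The 2 members whose group means differed most were SPRY1 and SPRY4. The genes nearest to SPRY1 in profile over the 16 libraries, by the root mean square difference of log2 CPM centred on each gene's mean, were PDK1 at 0.25, RORA at 0.27 and BNIP3 at 0.33, among 10672 genes averaging 5 CPM or more. SPRY1's own root mean square spread was 0.78 on that scale. PDK1 encodes a kinase that inhibits pyruvate dehydrogenase, RORA a nuclear receptor and BNIP3 a mitochondrial protein of the BCL2 family. Nearest to SPRY4, whose own spread was 0.66, were PLCXD2 at 0.21, GEM at 0.26 and SKIDA1 at 0.26.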

How the data were processed

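DU145 messenger RNA was sequenced from 800 ng of total RNA a library with a strand-marking kit as single 75-base reads, per the labels' protocols. The submitters' processing notes name STAR 2.6.1c, DESeq and GRCh38.p12, while the counting program and its strand setting were not stated. The authors deposited raw counts per Ensembl gene. Of 64792 identifiers, 58735 took a symbol from GENCODE release 29. Counts were kept with filterByExpr (minimum count 10, minimum total 15) and tested with edgeR 4.0.16 in R 4.3.3 (TMM scaling, quasi-likelihood, 1 model of 4 group means over 16 libraries, 12 residual degrees of freedom, two-sided, Benjamini-Hochberg over 14690 genes). The fit was tested on simulated counts drawn without the GC trends and the split by replicate number described above. That test does not bear on either. SE is the log2 fold change over the root of F. Promoter windows are RefSeq's (GRCh38.p14), and 8 of the 10 members matched.

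The members, lists and rules were chosen with earlier results of these data known. All 10 members are described; of each list, counts and up to 4 genes with the smallest p under lactate were named, and for the 2 members with the widest range of group means, the 3 nearest genes. Alternatives were other scalings and filters, DESeq2 1.42.0, limma-voom 3.58.1, GC and exon length corrections, replicate terms and leaving out libraries. No pair of replicates agreed within counting noise (chi-square per gene 2.03 to 160.0, where counting alone gives about 1). Some genes of the lists are not reported here.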

Additional observations from a re-analysis of the deposited data

Results flagged for a closer look

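Of 40 groups of 4 libraries (10 genes in 4 groups), 1 held a library far from the others. SPRED2 in the cells given lactate and I-BET762 read 95.6 CPM in replicate 1, and its gap to the nearest other library was 0.977 of the group's range, above Dixon's 95% critical value for 4 values. The other 3 libraries read 83.9, 83.9 and 83.7 CPM. Chance marks about 1 in 20 groups in this way.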

How the results depend on the processing

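Over the 6 comparisons, none of the differences of single members that passed a test in either analysis changed direction. Over all members, comparisons and alternatives there were 1384 tests, called or not, and 24 of them lost a call and 45 gained one. For lactate against control, 3 members were called in the reported analysis and 5 with a replicate block, 5 with the block and GC and exon length corrections, 1 when the compared groups were fitted alone, and 5 with the term for replicates 1 and 2 against 3 and 4. Leaving out 1 library gave 1 (without control replicate 3) to 4 members. For lactate added to I-BET762, 1 member was called in the reported analysis, 0 when a mean of at least 5 CPM was required, because SPRY1 is then not tested, 3 with the replicate block, 2 with GC and length corrections, 4 with the block and these corrections, 5 with the compared groups alone, 4 with the replicate term, 2 with that term once control replicate 2 and I-BET762 replicate 2 were left out, and 2 by DESeq2. Leaving out 1 library gave 1 throughout. For both agents against the control, 3 members were called in the reported analysis, 5 with the block, 5 with the compared groups alone, 5 with the replicate term and 7 with that term and the same 2 libraries left out. Leaving out 1 library gave 2 to 5, the 5 without control replicate 2. Calls over all genes also moved between these analyses, as given below. The counts of members are not set against the share of all genes in each analysis, so they are no result about the members. The cause of these shifts was not tested unless named.

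The labels do not say what a replicate number shares, and not every same-numbered pair correlated, so the samples were not treated as paired: of 24 same-numbered pairs of libraries, 16 had deviations from their group means that correlated above 0.1 (-0.26 to 0.421, median 0.1725, against a median of -0.077 for other pairs), and 7 of 16 libraries matched their own number best. With the replicate block, SPRY4 (-0.70) and DUSP1 (0.58) passed under lactate (edgeR adjusted p = 0.00758 and 0.00243). Both also passed with lactate added to I-BET762 (-0.60 and 0.48, edgeR adjusted p = 0.0401 and 0.0171) and with both agents against the control (-0.85 and 0.69, edgeR adjusted p = 0.00257 and 0.000858). Once GC and exon length corrections joined the block, the lactate change was -0.66 for SPRY4 and 0.31 for DUSP1, and both passed (edgeR adjusted p = 0.00378 and 0.0174).

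Over all genes, lactate against control gave 3486 calls, 889 to 4244 under other analyses and 1839 to 4950 with 1 library left out. Lactate added to I-BET762 gave 720 (469 to 2535, and 285 to 564), both agents against the control 3045 (1507 to 4709, and 1704 to 3094), and I-BET762 against control 65 (0 to 542, and 0 to 277). I-BET762 added to lactate gave 0 (0 to 197) and the interaction 0 (0 to 3). SPRY1, with 23 to 128 counts a library, is the member whose precision depth limits most.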
